A study of Mus musculus with 3 samples.

Results

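The 10 genes described here belong to the NF-κB pathway and were found by symbol among the 30406 gene identifiers that all 3 deposited tables share. Nfkb1, Nfkb2, Rel and Relb encode 4 of the pathway's 5 transcription factor subunits, and Nfkbia, Nfkbie and Nfkbid encode proteins of the IκB family. Tnfaip3, Traf1 and Birc3 encode regulators of signalling downstream of TNF receptors. Their transcripts were counted in single TCRβ+CD1d-tet+CD24−NK1.1− cells of the mouse thymus, sorted as invariant natural killer T (iNKT) cells that lack NK1.1, a marker of mature NKT1 cells, after beads had removed CD8+ cells. One library came from C57BL/6 mice without bone marrow transplantation (BMT), labelled as 7 weeks old. The other 2 came from lethally irradiated F1 (C57BL/6 × BALB/c) mice, labelled as 16 weeks old and 9 weeks after BMT. Both sets of recipients had been given marrow of C57BL/6 mice depleted of T cells, either alone (BM only, without graft-versus-host disease) or together with splenic cells of C57BL/6 mice (BM + Spl, with chronic graft-versus-host disease). Recipients still have a host thymus stroma, and cells of several mice were pooled, so each condition is 1 library and no difference between conditions has a replicate check.

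In resting T cells NF-κB dimers are held in the cytoplasm by IκB proteins. Signals from the T cell receptor with CD28, or from receptors of the TNF family, activate IκB kinase, IκB is degraded, and the released dimers enter the nucleus. Many genes of the pathway are themselves transcribed by NF-κB, among them Nfkbia and Tnfaip3, which close a negative feedback loop. A second, slower branch processes the Nfkb2 product p100 to p52, the partner of RelB. NF-κB activity is known to be needed for thymic iNKT cells and for regulatory T cells (Treg cells) to develop.

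All coordinates refer to GRCm38 (mm10 in the labels), with gene bounds from GENCODE vM21. The subunit genes are Nfkb1 (ENSMUSG00000028163, chromosome 3 from 135584655 to 135691547, minus strand), Nfkb2 (ENSMUSG00000025225, chromosome 19 from 46304320 to 46312385, plus strand), Rel (ENSMUSG00000020275, chromosome 11 from 23736847 to 23770970, minus strand) and Relb (ENSMUSG00000002983, chromosome 7 from 19606217 to 19629438, minus strand). The IκB genes are Nfkbia (ENSMUSG00000021025, chromosome 12 from 55489410 to 55492647, minus strand), Nfkbie (ENSMUSG00000023947, chromosome 17 from 45555703 to 45563169, plus strand) and Nfkbid (ENSMUSG00000036931, chromosome 7 from 30421732 to 30428746, plus strand). The others are Tnfaip3 (ENSMUSG00000019850, chromosome 10 from 19000910 to 19015657, minus strand), Traf1 (ENSMUSG00000026875, chromosome 2 from 34941750 to 34961772, minus strand) and Birc3 (ENSMUSG00000032000, chromosome 9 from 7848699 to 7873186, minus strand). All 10 are protein-coding. The Nfkb2 locus overlaps the genes AC114539.1 and Psd on the opposite strand. That of Nfkb1 overlaps Gm43430 on its own strand, so reads of Nfkb1 and Gm43430 may be shared. Sharing of reads across strands was not examined. The other 8 loci overlap no annotated gene.

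Since many of these genes are known targets of NF-κB themselves, the 250 bases before their transcription starts were searched for the κB consensus, the motif bound by NF-κB dimers, on both strands. RefSeq promoters on GRCm38.p6 were at hand for 8 of the 10 genes and not for Nfkb1 and Relb. A match stood before at least 1 start of 6 of the 8 members, and before 8.27% of all 26742 genes with a promoter there. Counted by start, it stood in 8 of 13 promoters of members and in 7.28% of all 32544 promoters. The 6 stretches of 30 bases below show 1 match for each member that had any, 5′ to 3′ on the gene's strand with the match in capitals.
Nfkb2: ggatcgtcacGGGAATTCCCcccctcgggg
Rel: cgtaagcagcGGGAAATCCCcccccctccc
Nfkbia: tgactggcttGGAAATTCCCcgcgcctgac
Nfkbie: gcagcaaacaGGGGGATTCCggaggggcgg
Nfkbid: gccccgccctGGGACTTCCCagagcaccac
Tnfaip3: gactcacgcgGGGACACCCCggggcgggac
These stretches lie at chr19:46304688-46304717 on the plus strand (Nfkb2), chr11:23771042-23771071 on the minus strand (Rel) and chr12:55492657-55492686 on the minus strand (Nfkbia). They lie at chr17:45555584-45555613 on the plus strand (Nfkbie), chr7:30422170-30422199 on the plus strand (Nfkbid) and chr10:19015516-19015545 on the minus strand (Tnfaip3). The matches begin 29 bases before the start of Nfkbia and 226 before that of Nfkbid, with the others between. That of Nfkb2 lies in an annotated exon of a transcript that starts farther upstream, and the 250 bases before the same start hold 3 matches, 2 of them overlapping. The stretches of Nfkbid and Tnfaip3 also lie within the gene bounds given above. For Nfkbid the match stands before the start at 30422406, and none stood before the start farther upstream at 30421731. No match was found before the starts of Traf1 and Birc3, which says only that these letters are not in this window. Binding of any factor was not measured.

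Transcripts were counted as unique molecular identifiers (UMIs). Of 4613 cells from C57BL/6 mice, 5986 from BM only and 5573 from BM + Spl, 4434, 5970 and 5557 were kept, those with more than 200 but fewer than 6000 genes and less than 10% of their UMIs mitochondrial. The kept cells had medians of 12086.5, 4740.0 and 6495.0 UMIs. The BM only and BM + Spl libraries share 43 cell barcodes, and neither shares any with the C57BL/6 library. Levels are in CPM, the UMIs of a gene per 1000000 UMIs of all shared genes, summed over a group of cells, with exact Poisson 95% intervals in parentheses. Differences are log2 ratios of CPM with exact conditional 95% intervals. All intervals cover counting error only, not the spread between mice, and a gene is called past 1.5-fold in a comparison by its ratio alone.

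Cells were gated on marker genes outside the 10 after each was thinned to 2700 UMIs, and the gates are named for the markers read and not for a proven identity. The NKT1 gate, read on Tbx21, Nkg7, Xcl1 and other genes, took 767 cells from C57BL/6 mice, 1810 from BM only and 437 from BM + Spl, and the NKT2 gate, read on Zbtb16, Il17rb and others, took 1767, 723 and 1293. The NKT17 gate took 117, 374 and 267 cells and the cycling gate 305, 145 and 229. Shares of these gates follow the sort against NK1.1 and the removal of CD8+ cells. Cells with a Foxp3 UMI, the Treg gate, numbered 3, 387 and 455, so the C57BL/6 library gives no Treg level. Zbtb16, which encodes the iNKT factor PLZF, was at 267 CPM in NKT17-gated cells of C57BL/6 mice, at 160.04 in BM only and at 33.4 in BM + Spl. The V segments of the T cell receptor β chain were classed by a list taken here as those of iNKT cells. In the NKT1 gate the segment was outside this list in 116 of 1547 BM only cells with a V β call (7.498%, Clopper-Pearson 6.24 to 8.93). The same held for 221 of 375 BM + Spl cells (58.9%, 53.8 to 63.96). Many gated cells of BM + Spl therefore carried receptors that go against the NKT label of the sample, and results for that gate are given below within each V β class as well. Fewer cells of a type within a gate and less RNA per cell cannot be told apart in sums of this kind.

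Summed over all filtered cells, all 10 members were higher in both BMT libraries than in C57BL/6 mice. Past 1.5-fold lay 9 of 10 in BM only, against a background of 33.7% of all genes higher, and 10 of 10 in BM + Spl, against 33.5%. Both comparisons share the C57BL/6 library, so they are not independent. Tnfaip3, which encodes the deubiquitinase A20, was at 13.01 CPM (12.1 to 13.97) in C57BL/6, 279 (274 to 285) in BM only and 189.7 (186 to 194) in BM + Spl. Its log2 ratio to C57BL/6 was 4.42 (4.32 to 4.53) in BM only and 3.87 (3.76 to 3.97) in BM + Spl, the highest of the members. Nfkbia, the gene of IκBα, was at 144, 887 and 818 CPM. For these inhibitors of the pathway the intervals of the C57BL/6 library and of either BMT library lay far apart.

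Among the subunits Nfkb2 was at 11.7, 46.98 and 44.99 CPM in C57BL/6, BM only and BM + Spl. Nfkb1 moved least, from 86.4 to 127 and 133 CPM, and its ratio of 0.56 (0.50 to 0.62) in BM only was the only 1 within 1.5-fold. The C57BL/6 library was counted with another version of Cell Ranger, had more UMIs per cell and fewer on V β segments, and differs in host strain and age. A list of 15 genes known to respond to tissue dissociation, such as Fos, Jun and Hspa1a, summed to 3142 CPM in C57BL/6, 11402 in BM only and 7656 in BM + Spl. The mix of gates differed too, with 17.4% of thinned cells in the NKT1 gate of C57BL/6, 36.1% in BM only and 8.75% in BM + Spl. Among NKT2-gated cells Nfkb1 stood at 84.2, 91.1 and 84.99 CPM in these libraries and Traf1 at 30.995, 30.2 and 36.4. The other members were higher in that gate in both BMT libraries. The effects of transplantation, chemistry, counting software, strain, age, handling and mix of cells on the ratios to C57BL/6 cannot be told apart. The ratios below were therefore taken within the BMT libraries or within 1 library. Where values of C57BL/6 are listed beside those of the BMT libraries, or pooled with them, the same limit holds.

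In both BMT libraries the members varied several-fold between gates. In BM only mice Nfkb2 was lowest in NKT2-gated cells, at 18.9 CPM (15.7 to 22.5), and highest in Treg-gated cells, at 113 (100.01 to 128), with NKT1-gated cells at 45.8 (41.5 to 50.4) and NKT17-gated cells at 58.02 (48.1 to 69.4). In BM + Spl the same 4 gates stood at 21.1, 93.99, 59.4 and 77.5 CPM. The cycling gate, at 22.1 and 21.5 CPM, overlapped the NKT2 gate in its interval. In BM only the intervals of the NKT1 and NKT17 gates overlapped at their ends, which does not settle the order of these gates. Nfkb2 was thus low in NKT2-gated and cycling cells, intermediate in NKT1 and NKT17 and high in Treg-gated cells of both BMT libraries.

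Relb, whose product pairs with p52, was lowest in the plasmacytoid dendritic cell gate of BM only at 32.6 CPM, next to NKT2-gated cells at 34.95, and highest in Treg-gated cells at 101 CPM. Rel, the gene of c-Rel, which is known to be needed for Treg cells, ran from 40.6 CPM in cycling cells to 121 in Treg-gated cells of BM only, and from 39.2 to 114 in BM + Spl. Nfkb1, the gene of p105 and p50, was highest outside the T cells, in the macrophage and dendritic cell gate, at 256 and 274 CPM in BM only and BM + Spl. Among gated T cells its highest level was in Treg-gated cells of BM only, at 204 (186 to 223), and in NKT17-gated cells of BM + Spl, at 222 (199 to 247). In C57BL/6 mice, with too few Treg-gated cells for a level, Nfkb1 ran from 72.7 CPM in cycling to 118 in NKT17-gated cells and Nfkb2 from 7.38 in cycling to 19.02 in NKT1-gated cells.

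Of the IκB genes, Nfkbia reached 1724 CPM (1670.4 to 1779) in Treg-gated cells of BM only and 1575 (1533 to 1619) in those of BM + Spl. It stood at 665 and 596 CPM in NKT2-gated cells and at 507 and 472 in cycling cells. Nfkbie, the gene of IκBε, was lowest in cycling cells, at 7.704 and 8.705 CPM, and highest in the macrophage and dendritic cell gate, at 71.01 and 89.3. Nfkbid, the gene of the nuclear protein IκBNS, was lowest in NKT2-gated cells of both libraries, at 27.99 and 27.5 CPM. Its level in NKT1-gated cells, 71.6 (66.2 to 77.3) in BM only and 64.1 (54.7 to 74.8) in BM + Spl, overlapped that of Treg-gated cells, 60.7 (50.97 to 71.7) and 73.7 (64.8 to 83.6).

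Traf1, the gene of an adaptor of TNF receptor complexes, ran in BM only from 22.2 CPM (12.9 to 35.5) in the plasmacytoid dendritic cell gate to 221 (202 to 241) in Treg-gated cells. In BM + Spl these gates stood at 25.4 and 226 CPM. Tnfaip3 was highest in Treg-gated cells of BM only, at 417 (391 to 444), and in NKT1-gated cells of BM + Spl, at 362 (339 to 386). Birc3, the gene of the ubiquitin ligase cIAP2, was highest in B-gated cells of BM only at 126 CPM and lowest in cycling cells of both, at 21.6 and 22.03. The plot of levels by gate shows these patterns for the 6 T cell gates.

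**Figure D1:**
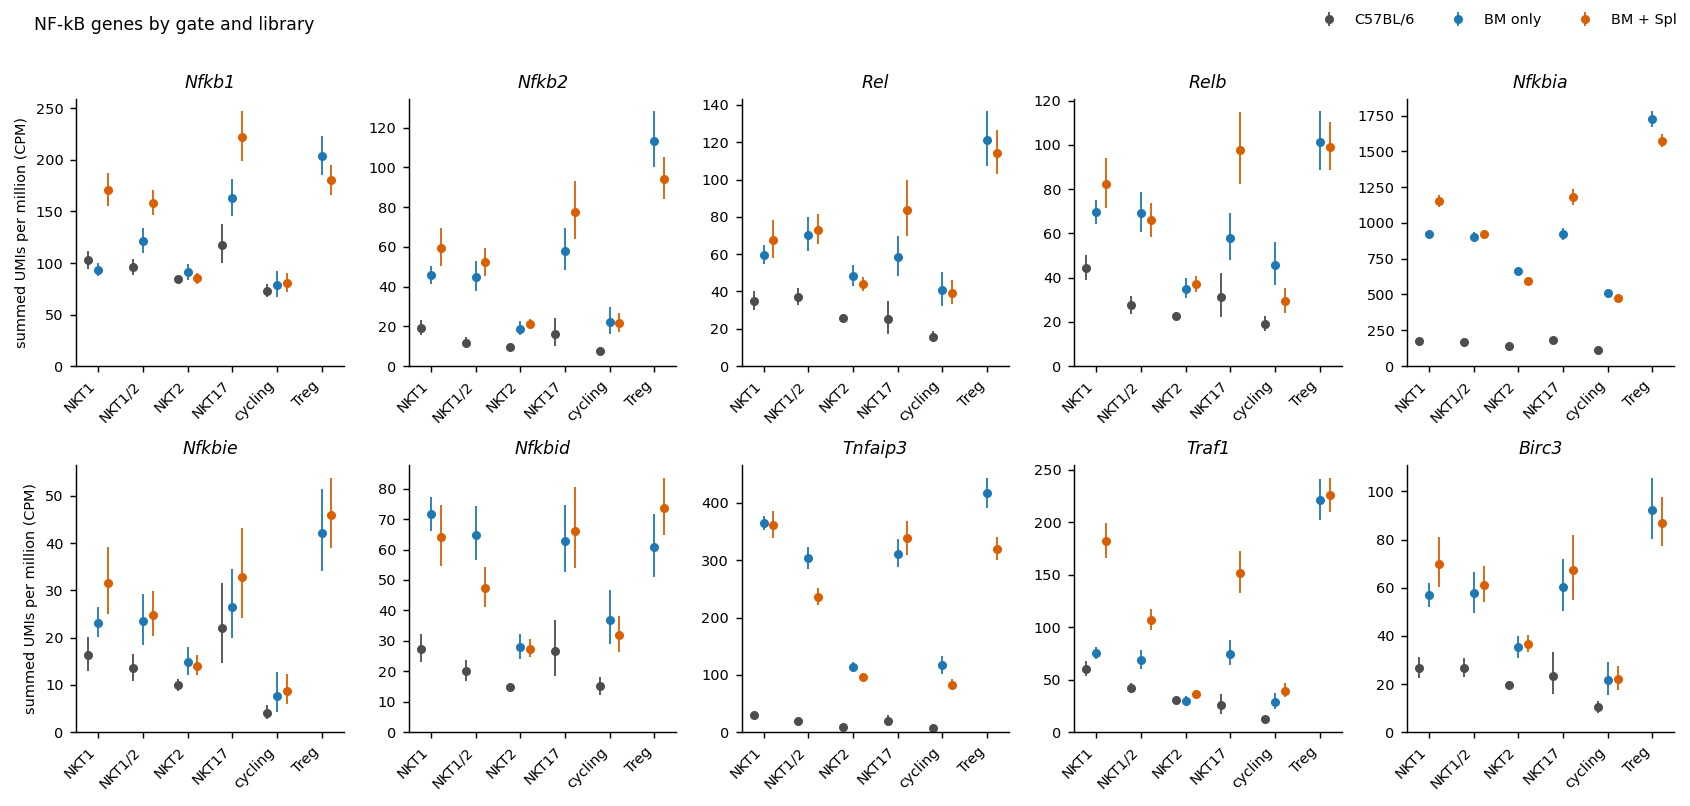
Level of each of the 10 genes, in CPM on axes that start at 0, in 6 gates (NKT1/2 marks cells with both NKT1 and NKT2 markers), with grey for C57BL/6, blue for BM only, orange for BM + Spl, exact Poisson 95% intervals as bars, and gates of under 50 cells left out. NKT2-gated and cycling cells are low and Treg-gated cells high in most panels, and Traf1 of NKT1-gated cells is at 75.1 CPM in BM only and 182 in BM + Spl.

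NKT1-gated cells had higher levels of most members than NKT2-gated cells of the same library. Past 1.5-fold higher lay 6 of 10 members in C57BL/6 (15.5% of all genes), 7 of 10 in BM only (15.8%) and 10 of 10 in BM + Spl (15.5%). No member was lower past that fold, beside 15.8% of all genes in C57BL/6, 15.4% in BM only and 13.5% in BM + Spl. This comparison lies within 1 library, so the version of Cell Ranger and the chemistry do not enter it. Median UMIs per cell were 6225 against 13887 in C57BL/6, 4602 against 8193 in BM only and 4697 against 9022 in BM + Spl. CPM is a share of these UMIs, so a higher CPM need not mean more UMIs of a gene per cell. In C57BL/6, Nfkb2 had 98 UMIs in 767 NKT1-gated cells and 249 in 1767 NKT2-gated cells. The list of dissociation genes was also higher in the NKT1 gate. It was at 3483 against 2856 CPM in C57BL/6, 14943 against 6671 in BM only and 10525 against 5817 in BM + Spl. Its part in the result was not tested.

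Tnfaip3 was at 30.3 CPM in NKT1-gated and 10.04 CPM in NKT2-gated cells of C57BL/6 mice, at 365 and 114 in BM only and at 362 and 96.6 in BM + Spl. The log2 ratios were 1.59 (1.297 to 1.88), 1.69 (1.57 to 1.803) and 1.91 (1.78 to 2.03). For Nfkb2 the ratios were 0.995 (0.64 to 1.34), 1.28 (0.98 to 1.58) and 1.49 (1.196 to 1.79), with intervals that overlapped across the libraries. These genes, as well as Relb, Nfkbie, Nfkbid and Traf1, were higher in the NKT1 gate of all 3 libraries past 1.5-fold.

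Traf1 and Nfkb1 separated the libraries. Traf1 stood at 60.4 against 30.995 CPM in C57BL/6, at 75.1 against 30.2 in BM only and at 182 against 36.4 in BM + Spl. Its log2 ratio was 0.96 (0.77 to 1.15), 1.32 (1.09 to 1.55) and 2.32 (2.13 to 2.51), and the interval of BM + Spl did not overlap the others. Nfkb1 gave 0.29 (0.15 to 0.43) in C57BL/6, 0.034 (-0.12 to 0.19) in BM only and 1.01 (0.84 to 1.17) in BM + Spl. Nfkbia gave 0.33 (0.22 to 0.44), 0.47 (0.42 to 0.53) and 0.95 (0.89 to 1.02). In these 3 genes the gap between the gates was widest in BM + Spl, where the NKT1-gated cells also differed most from the NKT2-gated ones in V β use. Rel, at 34.7 against 25.98 CPM in C57BL/6, was past the fold in BM + Spl alone, with ratios of 0.42 (0.17 to 0.66), 0.30 (0.095 to 0.50) and 0.62 (0.36 to 0.87).

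The count depended on V β class in the BMT libraries. Among cells with iNKT V β segments, 6 of 10 members were past 1.5-fold higher in the NKT1 gate of BM only (15.8% of all genes) and 9 of 10 in that of BM + Spl (13.9%). Among cells with other V β segments, 2 of 10 were in BM only (12.1% of all genes) and 2 of 10 in BM + Spl (9.11%). In that class of BM + Spl, Traf1 was at 216 CPM in the NKT1 and 123 in the NKT2 gate and Tnfaip3 at 432 and 221, whereas Nfkb1, at 179.7 and 199 CPM, Nfkb2, Rel, Relb and Nfkbid had ratios below 0. With every cell thinned to the same number of UMIs before summing, Rel was also below 0 in BM + Spl, from 69 and 229 UMIs.

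**Figure D2:**
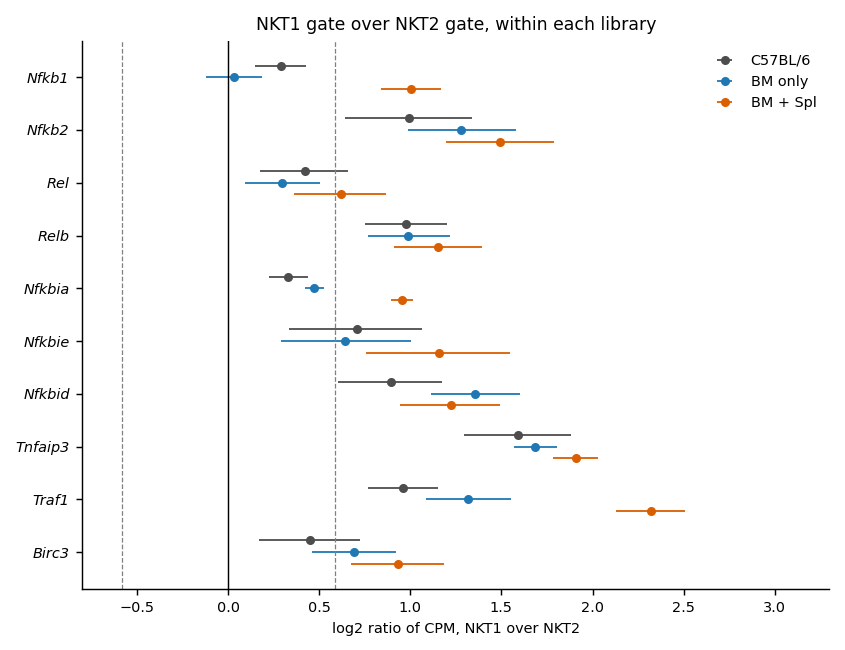
Log2 ratio of CPM, NKT1-gated over NKT2-gated cells, for each of the 10 genes in the C57BL/6 (grey), BM only (blue) and BM + Spl (orange) libraries, with exact conditional 95% intervals. Dashed lines mark 1.5-fold, and Traf1 of BM + Spl lies farthest to the right, at 2.32.

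Treg-gated cells, chosen by a Foxp3 UMI, had higher levels of all 10 members than NKT2-gated cells, past 1.5-fold in 10 of 10 in BM + Spl (20.9% of all genes) and in 10 of 10 in BM only (21.9%). This comparison uses the same NKT2-gated cells as the one above. Treg-gated cells too had fewer UMIs per cell than these, with medians of 4699 in BM only and 5490 in BM + Spl. Ctla4, a further Treg gene, was at 571 and 594 CPM in the gate in BM only and BM + Spl, against 23.5 and 23.3 in NKT2-gated cells. Traf1 was at 221 against 30.2 CPM in BM only, a log2 ratio of 2.87 (2.63 to 3.12), and at 226 against 36.4 in BM + Spl, a ratio of 2.63 (2.46 to 2.804). Nfkb2 gave 2.59 (2.27 to 2.91) in BM only and 2.16 (1.91 to 2.399) in BM + Spl. The smallest ratios were those of Nfkbid in BM only, 1.12 (0.79 to 1.44), and of Nfkb1 in BM + Spl, 1.09 (0.94 to 1.23). Against NKT2-gated cells with other V β segments, Treg-gated cells with such segments had 5 of 10 members past the fold in BM + Spl (15.0% of all genes). The dissociation genes moved with the unrestricted comparison, at 10642 CPM in Treg-gated against 6671 in NKT2-gated cells of BM only and 8725 against 5817 in BM + Spl, and their part in it was not tested.

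The comparison of BM + Spl with BM only asks whether graft-versus-host disease went with another level of these genes. Over all filtered cells none of the 10 members lay past 1.5-fold, against 6.83% of all genes higher and 8.28% lower. Tnfaip3 came closest, at 279 CPM in BM only and 189.7 in BM + Spl, a log2 ratio of -0.56 (-0.60 to -0.51). It was past the fold lower, as 1 of 10, when only cells with iNKT V β segments were summed. The same held when the Treg, CD8 T, B, dendritic and macrophage gates were left out. No share of all genes was set beside either count. Nfkbid, at 53.5 and 42.3 CPM, gave -0.34 (-0.43 to -0.25), and Traf1, at 74.5 and 95.8 CPM, gave 0.36 (0.29 to 0.43). The gates make up different shares of the libraries, with 36.1% of thinned cells in the NKT1 gate of BM only and 8.75% in that of BM + Spl, so that sums over all cells mix levels and shares.

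Within the NKT1 gate 2 of 10 members were past 1.5-fold higher in BM + Spl (10.8% of all genes) and none was lower (10.4%). Traf1 was at 75.1 CPM (69.6 to 80.97) in BM only and 182 (166 to 199) in BM + Spl, a log2 ratio of 1.27 (1.101 to 1.45). Nfkb1 was at 93.2 CPM (87.1 to 99.7) and 171 (155 to 188), a ratio of 0.87 (0.70 to 1.04). For Nfkb2, Relb, Nfkbia, Nfkbie and Birc3 the interval of the ratio also lay above 0, with ratios from 0.24 (Relb) to 0.44 (Nfkbie). The ratios of Rel, 0.18 (-0.071 to 0.43), Nfkbid, -0.16 (-0.42 to 0.09), and Tnfaip3, -0.011 (-0.12 to 0.095), had intervals that included 0. The share of members past 1.5-fold was thus near that of all genes, and 7 of 10 members had an interval above 0 beside 21.5% of all genes. Whether an interval leaves out 0 depends on the UMIs of a gene, and these 2 shares were not matched for UMIs. Treg genes (Foxp3, Ikzf2, Ctla4 and Il2ra) moved with these ratios, summing to 104 CPM in the gate in BM only and 447 in BM + Spl, with Ctla4 at 19.7 and 179.8, while Nkg7, a marker of the gate, was at 1617 and 854. Their part in the result was not tested.

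The NKT17 gate gave a like picture. Past 1.5-fold higher lay 2 of 10 members (7.72% of all genes), and none was lower (9.1%). Traf1 was at 74.9 CPM in BM only and 152 in BM + Spl, a log2 ratio of 1.02 (0.72 to 1.32), and Relb, the partner of p52, was at 58.02 and 97.6 CPM, a ratio of 0.75 (0.39 to 1.11). The intervals of Nfkb1, Nfkb2, Rel and Nfkbia also lay above 0. In this gate cells with other than iNKT V β segments made up 154 of 233 called cells of BM + Spl and 98 of 303 of BM only. Traf1 of NKT17-gated cells with iNKT V β segments was at 63.2 CPM in BM only and 142 in BM + Spl, and with other segments at 113 and 166, which is within 1.5-fold. In the iNKT V β class Treg genes summed to 215 CPM in BM only and 458 in BM + Spl, and Zbtb16 stood at 183 and 73.2. Treg genes in the other class summed to 372 and 303 CPM. Their part in the Traf1 values was not tested. Within the intermediate gate, cells with markers of both NKT1 and NKT2, Traf1 alone was past the fold, at 68.6 and 107 CPM (7.33% of all genes higher, 6.49% lower), with a ratio of 0.64 (0.41 to 0.88). Other V β segments were called there in 47 of 462 cells of BM only and 153 of 484 of BM + Spl. Treg genes summed to 233 and 404 CPM in this gate. The part of either in the Traf1 ratio was not tested.

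In the NKT2 gate none of the 10 members was past 1.5-fold (1.92% of all genes higher, 2.46% lower). Nfkb1 was at 91.1 CPM (83.9 to 98.7) in BM only and 84.99 (79.95 to 90.3) in BM + Spl, with a ratio of -0.10 (-0.25 to 0.048). Traf1 was at 30.2 and 36.4 CPM, with a ratio of 0.27 (0.026 to 0.52). Tnfaip3, -0.23 (-0.37 to -0.10), and Nfkbia, -0.16 (-0.21 to -0.10), were lower in BM + Spl beyond counting error. For the other members the ends of the intervals lay between -0.44 and 0.48, so a change past 1.5-fold of any member lay outside its interval in this gate.

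Treg-gated cells also held no member past 1.5-fold (3.92% of all genes higher, 5.78% lower). Tnfaip3 was at 417 CPM in BM only and 320.1 in BM + Spl, a ratio of -0.38 (-0.51 to -0.25), and Traf1 at 221 and 226 CPM, a ratio of 0.03 (-0.14 to 0.20). In cycling cells 1 member was past the fold, Relb, at 45.7 CPM in BM only and 29.4 in BM + Spl, a ratio of -0.64 (-1.06 to -0.22) (2.9% of all genes higher, 4.69% lower). The count of members lower in cycling cells became 4 with iNKT V β cells only and 2 with every cell thinned before summing. The list of dissociation genes was lower in BM + Spl in all 5 of these gates, at 14943 against 10525 CPM in the NKT1 gate and 6671 against 5817 in the NKT2 gate. Its part in the lower Tnfaip3 of the NKT2, Treg and cycling gates was not tested.

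**Figure D3:**
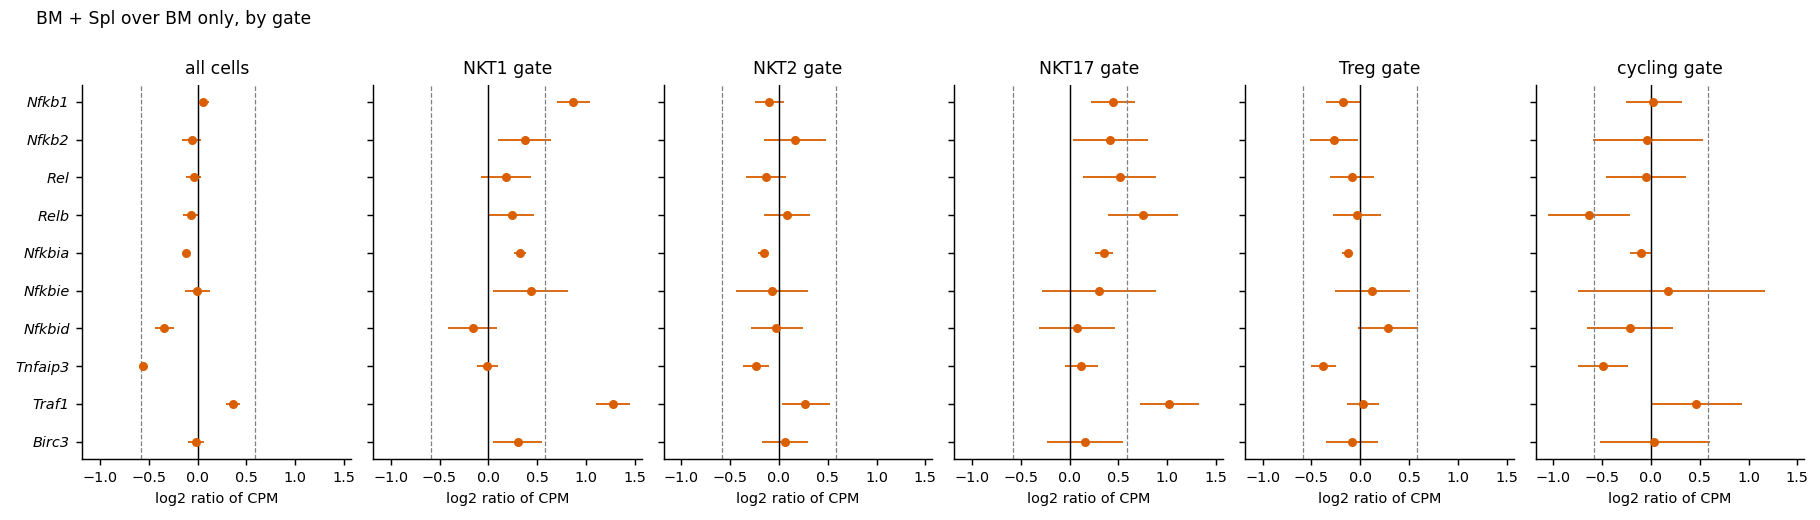
Log2 ratio of CPM, BM + Spl over BM only, of each of the 10 genes in all filtered cells and in 5 gates, with exact conditional 95% intervals and dashed lines at 1.5-fold. Traf1 lies past the right line in the NKT1 and NKT17 gates and near 0 in the Treg gate, and the points of the NKT2 gate stay between the lines.

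Because V β use of the NKT1 gate differed between the BMT libraries, its cells were split into those with a V β segment taken here as iNKT and those with another. Zbtb16 was at 35.1 CPM in BM only and 56.5 in BM + Spl in the iNKT V β class, and at 19.9 and 2.696 in the other class. Among NKT1-gated cells with iNKT V β segments (1431 in BM only and 154 in BM + Spl), Nfkb1, Nfkb2 and Traf1 were past 1.5-fold higher in BM + Spl (11.4% of all genes) and no member was lower (13.8%). Traf1 was at 71.1 and 127 CPM, a ratio of 0.84 (0.54 to 1.13). Nfkb1 was at 85.5 and 141 CPM, a ratio of 0.72 (0.44 to 0.99), and Nfkb2 gave 0.59 (0.18 to 0.99). Nfkbia, at 905 and 1337 CPM, gave 0.56 (0.48 to 0.65), while Tnfaip3, at 362 and 285 CPM, was lower in BM + Spl, at -0.34 (-0.53 to -0.16).

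Among the cells with other V β segments (116 and 221), Traf1 alone was past 1.5-fold (9.15% of all genes higher, 7.48% lower), at 105 CPM in BM only and 216 in BM + Spl, a ratio of 1.04 (0.64 to 1.47). Nfkb1, at 131 and 179.7 CPM, gave 0.45 (0.072 to 0.85). The higher Traf1 and Nfkb1 of BM + Spl were thus present in both V β classes. The iNKT V β class does not single out iNKT cells. In the Treg gate such segments were called in 84 of 303 cells with a call in BM only and in 98 of 364 in BM + Spl. In the iNKT V β class the Treg genes moved with the result as well. They summed to 66.9 CPM in BM only and 403 in BM + Spl, with Foxp3 itself at 0.141 and 21.6, and their part in it was not tested.

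The V β classes of 1 library were also compared with each other. In the NKT1 gate of BM + Spl, Traf1 and Tnfaip3 were past 1.5-fold higher in cells with other V β segments (6.85% of all genes) and Nfkbid was lower (6.28%). Nfkbid was at 89.3 CPM with iNKT and 48.5 with other V β segments, a ratio of -0.88 (-1.398 to -0.37). In BM only it was at 76.6 and 48.2 CPM, a ratio of -0.67 (-1.26 to -0.13), while Nfkb1, Rel and Nfkbie were past the fold higher (8.73% of all genes higher, 10.2% lower). Nfkbid was therefore the member that was lower in the other V β class of the NKT1 gate of both libraries.

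In the NKT2 gate more members differed between the V β classes. Median UMIs per cell were 9221 with iNKT and 5514.5 with other V β segments in BM + Spl, and 8521 and 6134 in BM only. Past 1.5-fold higher in cells with other V β segments lay 9 of 10 members in BM + Spl (124 against 983 cells, with 14.6% of all genes higher and 9.14% lower) and 9 of 10 in BM only (51 against 568 cells, 13.1% higher and 17.4% lower). Traf1 was at 29.5 CPM (26.2 to 33.1) with iNKT and 123 (100.4 to 149) with other V β segments in BM + Spl, a ratio of 2.06 (1.72 to 2.39), and gave 2.28 (1.73 to 2.81) in BM only. Nfkb1 was at 74.5 and 199 CPM in BM + Spl, a ratio of 1.42 (1.17 to 1.66), and at 89.3 and 138 in BM only, a ratio of 0.63 (0.17 to 1.06). In C57BL/6 mice, with few called cells, the classes stood at 81.5 (74.2 to 89.2) and 85.9 (64.7 to 112) for Nfkb1 and did not differ beyond counting error. Treg genes summed to 79.9 and 342 CPM in the classes of BM + Spl and to 105 and 533 in those of BM only, and Zbtb16 was at 354 and 147 CPM in BM only. The interval lay above 0 in 8 of 10 members in BM only, beside 7.75% of all genes, and in 10 of 10 in BM + Spl, beside 14.2%. Here too members and all genes were not matched for UMIs.

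**Figure D4:**
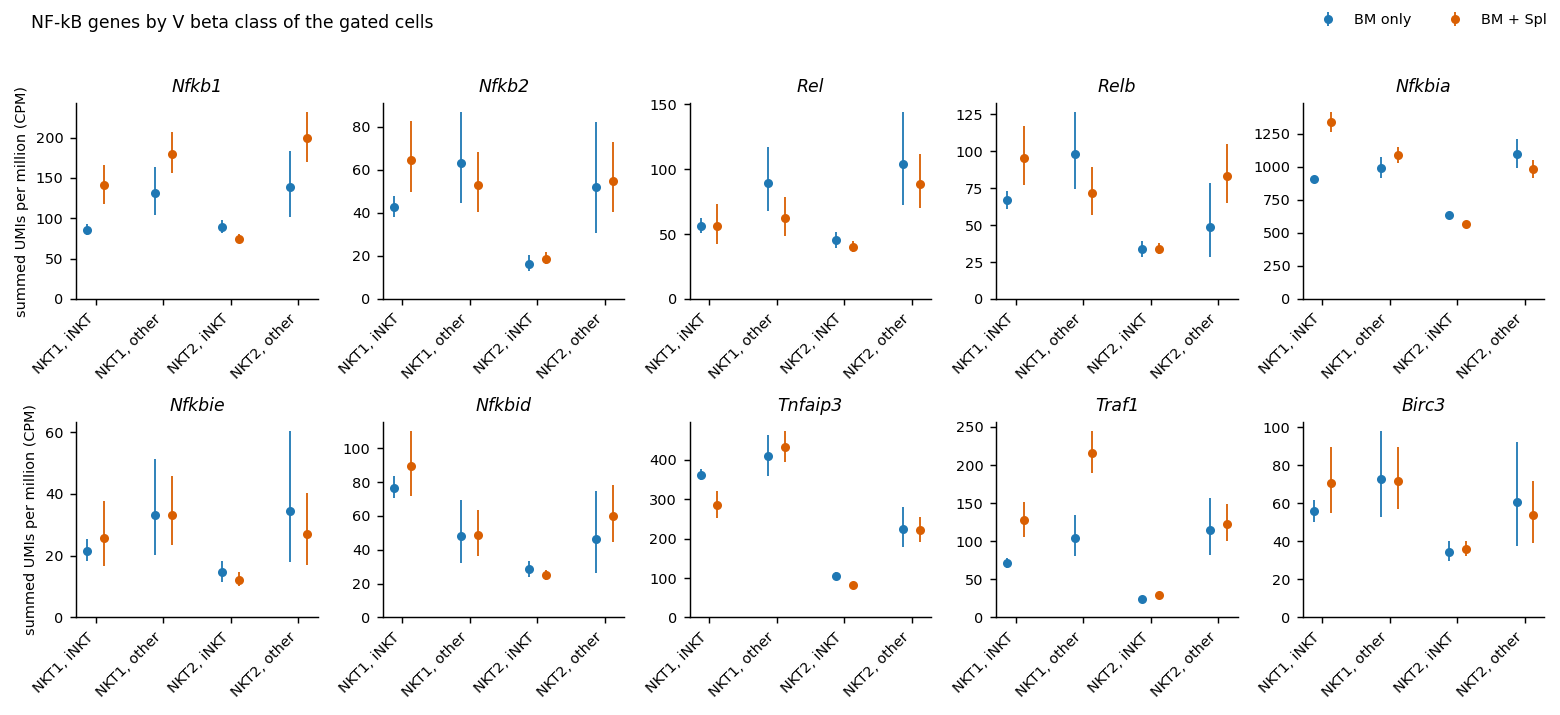
Level in CPM, on axes that start at 0, of each of the 10 genes in NKT1- and NKT2-gated cells with iNKT or other V β segments of the BM only (blue) and BM + Spl (orange) libraries, with exact Poisson 95% intervals. Most genes are lowest in NKT2-gated cells with iNKT segments, and Traf1 is highest in NKT1-gated cells with other segments of BM + Spl, at 216 CPM.

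Within the NKT1 gate, cells with at least 3 UMIs of Ccl3, Ccl4 and Ifng together, read here as chemokine-secreting, were set against the rest of the gate. In BM only (525 against 1285 cells) no member was past 1.5-fold (2.15% of all genes higher, 4.15% lower). The intervals of Nfkbia, 0.50 (0.44 to 0.57), Tnfaip3, 0.46 (0.35 to 0.56), and Nfkbid, 0.35 (0.11 to 0.59), lay above 0. In BM + Spl (56 against 381 cells) Nfkbid, Nfkbia and Rel were past 1.5-fold higher (9.01% of all genes). Nfkbid was at 197 CPM (150.2 to 255) in chemokine-secreting and 46.4 (37.9 to 56.2) in the other cells, a ratio of 2.09 (1.603 to 2.56). Nfkbie lay past the fold lower (12.2% of all genes), from 5 UMIs in the chemokine-secreting cells, with an interval that included 0. The members with intervals above 0 in both libraries were Nfkbia, Nfkbid and Tnfaip3, and in BM + Spl Rel and Nfkb1 joined them. Genes induced by the T cell receptor (Nr4a and Egr families) summed to 370.1 CPM in chemokine-secreting and 241 in other NKT1-gated cells of BM only, and to 1171 and 342 in those of BM + Spl. The dissociation genes stood at 17574 and 13951 CPM in BM only and at 12687 and 10237 in BM + Spl, and the part of either list in the result was not tested.

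The rest of the pathway was read from lists of 75 further genes. In the NKT1 gate 69 of them had at least 50 UMIs. Of these, 17 were past 1.5-fold higher in BM + Spl than in BM only (10.8% of all genes) and 5 lower (10.4%). The median log2 ratio was 0.14 beside 0.033 over all genes tested. By list, 4 of 10 receptors and 9 of 18 targets were higher, and 2 and 2 were lower. Of the 25 adaptors and kinases, none was higher and 1 was lower, and of 15 other inhibitors and regulators 4 were higher. Rela, the gene of the remaining subunit p65, was at 81.9 CPM in BM only and 79.9 in BM + Spl, a ratio of -0.037 (-0.27 to 0.19).

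Il2, the gene of interleukin 2, was at 4.28 CPM in BM only and 76.3 in BM + Spl in the NKT1 gate, a log2 ratio of 4.16 (3.65 to 4.69). In BM + Spl 145 of its 194 UMIs in this gate lay in the 56 chemokine-secreting cells, at 485 CPM. The other 381 cells were at 21.8 CPM. Tnfrsf4, the gene of the costimulatory receptor OX40, was at 44.9 CPM in BM only and 466 in BM + Spl, a ratio of 3.37 (3.21 to 3.54). Lta, the gene of lymphotoxin α, was at 10.98 CPM in BM only and 109.7 in BM + Spl, a ratio of 3.32 (2.99 to 3.67). The same 3 genes had ratios past the fold in the NKT17 gate, 4.74 (4.11 to 5.45), 2.14 (1.95 to 2.34) and 2.12 (1.73 to 2.52). Lower in the NKT1 gate of BM + Spl were Ier3, an early response gene, at -1.61 (-2.15 to -1.12), Il18rap, a chain of the interleukin 18 receptor, at -0.995 (-1.28 to -0.72), and Icam1, the gene of an adhesion molecule, at -0.83 (-1.08 to -0.59). The lists of receptors and targets thus held genes that differed in either direction.

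In the NKT2 gate 1 of 69 list genes was higher and none lower (1.92% of all genes higher, 2.46% lower). This was Il2, with 275 UMIs in BM + Spl and 1 in BM only, a ratio of 7.16 (4.67 to 12.46). Rela was at 56.4 CPM in BM only and 56.3 in BM + Spl. In Treg-gated cells none of 67 was higher and 6 were lower (3.92% of all genes higher, 5.78% lower). Most of these 6 were receptors, with Il18rap at -1.26 (-1.78 to -0.75), Tnfrsf1a, a receptor of TNF, at -0.86 (-1.396 to -0.33) and Il18r1 at -0.73 (-0.95 to -0.50). Within NKT1-gated cells with iNKT V β segments 17 of 68 were higher (11.4% of all genes) and 8 lower (13.8%), with Tnfrsf4 at 4.53 (4.25 to 4.81). The 6 genes induced by the T cell receptor summed to 277 CPM in BM only and 439 in BM + Spl in the NKT1 gate, and to 179 and 193 in the NKT2 gate. They did not move together in the undivided NKT1 gate, where 4 were past 1.5-fold higher (10.8% of all genes) and 2 lower (10.4%). In its iNKT V β class 4 of 6 were higher (11.4% of all genes) and none lower (13.8%). In its other V β class 1 of the 4 with at least 50 UMIs was higher (9.15%) and none lower (7.48%). In the NKT2 gate none was past the fold.

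**Figure D5:**
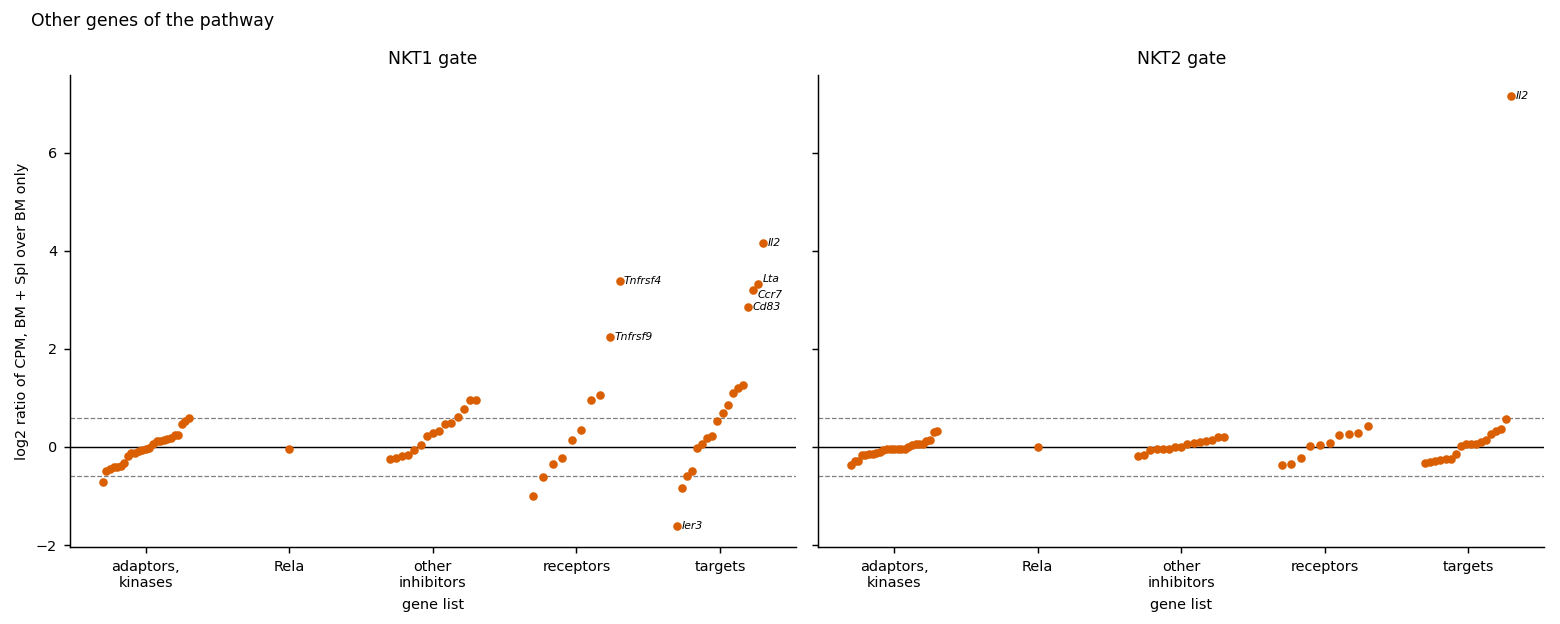
Log2 ratio of CPM, BM + Spl over BM only, of the further pathway genes with at least 50 UMIs in the NKT1 gate (left) and the NKT2 gate (right), by list. Points within a list are sorted by value, dashed lines mark 1.5-fold and genes past 1.5 on this scale are named. Receptors and targets spread widely in the NKT1 gate, and in the NKT2 gate Il2, which had 1 UMI in BM only, stands alone past the lines.

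Over the 24 groups of at least 50 cells (10 gates and 3 libraries), the genes outside the lists whose profile was most like the mean profile of the members were Bhlhe40 (Pearson r = 0.948), Rgs1 (0.947), Aim2 (0.944), Klf6 (0.942) and Tagap (0.941). Over the 19 groups of the BMT libraries alone they were Aup1 (0.925), H2-D1, Bag3, Stat6 and Smpd1 (0.908), so no gene stood in both sets of 5. The sets differ by rank more than by value, since the 5 genes named first had r from 0.843 (Aim2) to 0.904 (Rgs1) in the BMT libraries. Among the members 45 of 45 pairs had r above 0 over these 19 groups, with a median of 0.579, and the closest pairs were Nfkbie with Birc3 (0.945), Relb with Traf1 (0.914) and Nfkbia with Tnfaip3 (0.904). These values describe groups of cells that share libraries and depth and are no test. No share or median over pairs of all genes was set beside those of the members.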

How the data were processed

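Single-cell libraries were read from the UMI count matrices as deposited. Per the file headers, the authors made the counts with Cell Ranger, version 3.0.2 for C57BL/6 and 7.0.0 for BM only and BM + Spl, and the labels name mm10 and Seurat 4.0.2. Version 7.0.0 counts intronic reads by default, and which capture kit each library used is not given in the sources used here. The labels WT, Non-GVHD and GVHD set the groups. Counts were summed per gate over 30406 gene identifiers found in all libraries and divided by their total (CPM). The libraries held 60600408, 35041153 and 43383960 UMIs (C57BL/6, BM only, BM + Spl).

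Cells were gated on counts thinned to 2700 UMIs (15, 955 and 563 shallower cells of C57BL/6, BM only and BM + Spl were left out), first on T cell genes, then Treg, CD8 T, cycling, NKT17, NKT1 and NKT2 genes. A V β call needed 80% of a cell's V β UMIs on 1 segment, with Trbv12-2 and Trbv13-2 joined as 1. The segments taken here as those of iNKT cells were Trbv1, Trbv12-2, Trbv13-1, Trbv13-2, Trbv13-3 and Trbv29. Whether iNKT cells use each of them was not checked. No doublet caller was run. Cells with markers of T and other lineages (33, 93 and 101) stayed outside the gates, and leaving out the 6% of cells with the most UMIs was an alternative.

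With 1 library per group no test across samples was possible. Intervals are exact Poisson (levels), exact conditional binomial (ratios) or Clopper-Pearson (shares) at 95%. Calls were ratios past 1.5-fold, and the shares of all genes were taken over those with at least 50 UMIs in the 2 groups. The members, gene lists and comparisons were chosen with earlier results of these data known. Named genes were all 10 members and, from the wider lists, Rela and, per comparison, at most the 3 with the largest ratios in each direction that had at least 100 UMIs, lay past 1.5-fold and had an interval without 0. Other genes were compared with the members over groups of at least 50 cells on log2(CPM + 1), among genes with at least 500 UMIs. Python 3.11.15, numpy 2.4.6, pandas 2.3.3, scipy 1.17.1 and matplotlib 3.10.9 were used, and the scripts were tested on simulated data.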

Additional observations from a re-analysis of the deposited data

Results flagged for a closer look

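Relb, the gene of the subunit RelB, had a ratio of BM + Spl to BM only on opposite sides of 0 in different gates. The log2 ratio was 0.24 in NKT1-gated cells and 0.75 in NKT17-gated cells, and -0.64 in cycling cells, each with an interval that left out 0. With 1 library per condition the difference between the gates was not tested.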

How the results depend on the processing

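The count of members past 1.5-fold stayed within 1.5 times its value for all 10 main comparisons when cells were not filtered, size factors replaced CPM, every cell was weighted equally, chemokine-secreting cells or the 6% of cells with the most UMIs were left out, and for all 9 comparisons that use gates when these were read on unthinned cells or on another thinning. With thresholds 1 UMI higher it went from 2 to 4 in the NKT1 gate of BM + Spl against BM only, all higher. This setting was not simply stricter, since it also raised the NKT2 marker ceiling of the NKT1 gate and the Foxp3 UMIs needed for the Treg gate. The NKT1 gate grew from 437 to 514 cells in BM + Spl and from 1810 to 2093 in BM only. The Treg gate fell from 9.11% to 4.89% of thinned cells in BM + Spl and from 7.72% to 4.05% in BM only. Thinning cells before summing gave 2 lower in cycling cells and turned Rel of NKT1 against NKT2 cells in BM + Spl from 0.62 to -0.17, where equal weighting of cells gave 0.34. With iNKT V β cells only, the count for BM + Spl against BM only became 1 over all cells (lower), 2 in the Treg gate (1 in each direction) and 4 in cycling cells (lower). Leaving out the Treg, CD8 T, B, dendritic and macrophage gates gave 1 over all cells (lower). No share of all genes past the fold was set beside the counts under these settings.

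With other V β cells only, a choice added after seeing the data, the count became 1 in the NKT1 gate and 1 in the NKT2 gate of BM + Spl against BM only, 2 for NKT1 against NKT2 in BM only and 2 in BM + Spl, and 5 for Treg against NKT2 in BM + Spl. In that class ratios of NKT1 to NKT2 were -0.058 for Nfkbie and -0.14 for Traf1 in BM only, and -0.15 for Nfkb1, -0.052 for Nfkb2, -0.52 for Rel, -0.21 for Relb and -0.30 for Nfkbid in BM + Spl, and that of Treg to NKT2 cells was -0.19 for Nfkb1. These classes hold as few as 51 cells, and the cause of the moves was not tested. The count in the NKT2 gate of BM + Spl against BM only has no share of all genes beside it. Leaving out chemokine-secreting cells, another thinning seed and equal weighting of cells were also added after seeing the data.

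No paired analysis was possible because each group is 1 library, and no replicate was left out for the same reason. Nfkbie had the widest intervals of the members.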

Other observations

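Cells outside the iNKT, Treg and cycling gates also held reads of the 10 genes. CD8 T-gated cells, which the beads had been meant to remove, numbered 117 in BM only and 275 in BM + Spl. Traf1 was at 153 (124 to 186) CPM in those of BM only and 186 (166 to 208) in those of BM + Spl, with overlapping intervals. Nfkbia was at 1001 and 768 CPM in this gate. B-gated cells of BM only (69 cells) had the highest Birc3 of that library, at 126 (96.3 to 163) CPM, with Traf1 at 114 (85.4 to 148) and Tnfaip3 at 79.96 (56.6 to 109.8). In the macrophage and dendritic cell gate (122 and 115 cells) Traf1 was at 60.2 (46.02 to 77.3) CPM in BM only and 124 (103 to 147) in BM + Spl, whose intervals did not overlap. Markers in this gate differed too, with Lyz2 at 1469.5 and 304 CPM, C1qa at 21.7 and 0.9601, Xcl1 at 389.6 and 1208 and Nkg7 at 176 and 345, and their part in the Traf1 values was not tested. Relb was lower in the plasmacytoid dendritic cell gate (117 and 289 cells) than there, at 32.6 and 32.9 against 77.9 and 72.01 CPM.

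Among NKT1-, NKT2- and intermediate-gated cells, those with UMIs of interferon-induced genes such as Ifit1 and Isg15 were read as an interferon response state. Tnfaip3 was at 23.4 CPM in this state in C57BL/6, 236 in BM only and 144 in BM + Spl, and Nfkbid at 22.7, 54.3 and 31.03. Cells with UMIs of the precursor genes Ccr7, S1pr1, Sox4 and Itm2a had Traf1 at 25.2 CPM in C57BL/6, 41.7 (28.2 to 59.6) in BM only and 92.5 (78.99 to 108) in BM + Spl, where the intervals of the BMT libraries did not overlap. V β classes were not separated in these states, and the limit given above on setting C57BL/6 beside the BMT libraries holds for these levels too.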
